A study of Homo sapiens with 2 samples.

Results

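Transcripts of 8 genes known from neurodegeneration, SNCB, SNCG, PARK7, PINK1, UCHL1, MAPT, APP and APOE, were measured in single SH-SY5Y cells. The genes were chosen by name, with earlier results of these data known. All 8 have a row among the 33538 Ensembl genes of the count matrix. SH-SY5Y is a human neuroblastoma line, and untreated cells of 1 culture were divided between 2 flasks, SplitA and SplitB, tagged with a hashtag antibody per flask (Hashtag-1 for SplitA, Hashtag-2 for SplitB), pooled and sequenced as 1 CITE-seq experiment. Of 2879 cells, 1179 belonged to SplitA, 1605 to SplitB and 95 were multiplets, and the 2094 cells with at least 1000 genes (899 of SplitA, 1195 of SplitB) are described here. Both flasks had the same line, medium and lack of treatment, so they give the spread of a repeat and no comparison of conditions. The cells were untreated and not synchronized, and they are tumour cells rather than neurons, which limits them as a model of a diseased brain. The kit reads the 3′ ends of transcripts, so the splice forms of MAPT and APP could not be told apart.

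The depth was 5852780 UMIs (unique molecular identifiers, 1 per captured transcript) in SplitA and 8066440 in SplitB, with a median of 6063 and 6346 UMIs per cell. The label of the cells was checked against marker genes. Of 12 adrenergic neuroblast markers, 10 had at least 100 UMIs per 1000000 UMIs of all genes (CPM) in both flasks, led by STMN2 at a mean of 693 CPM, whereas TH (1.33 CPM), the rate-limiting enzyme of dopamine and noradrenaline synthesis, was low. All 9 glial, 9 microglial and 5 endothelial markers were below 10 CPM, and the defining genes GFAP, SOX10, PTPRC, CSF1R and PECAM1 had no UMI. Their summed level was 5.98 and 5.33 CPM for the glial list in SplitA and SplitB, 3.76 and 5.46 CPM for the microglial list, and 0.513 and 0.372 CPM for the endothelial list. Of 10 mesenchymal markers only VIM (125 CPM) reached 10 CPM, and of 9 markers of mature neurons SNAP25 (71.5 CPM) and SYN1 (12.1 CPM) did, while the dopamine transporter gene SLC6A3 stood at 0.333 CPM.

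The synucleins are small presynaptic proteins that bind vesicle membranes. PARK7 encodes DJ-1, a redox-sensitive protein, and PINK1 encodes a kinase that marks damaged mitochondria for removal, and loss of either causes early-onset Parkinson's disease. UCHL1 encodes a deubiquitinase that is abundant in neurons, MAPT encodes tau, a microtubule-binding protein, APP the precursor of the amyloid-β peptide, and APOE a lipid carrier that astrocytes supply in the brain.

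The levels of the 8 genes fell in the order UCHL1, PARK7, APP, MAPT, PINK1, APOE, SNCB and SNCG. As means of the 2 flasks, the levels were 230.2 ± 12.5 CPM for UCHL1, 203 ± 3.61 for PARK7, 93.4 ± 2.52 for APP, 14.7 ± 1.46 for MAPT, 13.9 ± 1.25 for PINK1, 7.80 ± 1.04 for APOE, 1.49 ± 0.173 for SNCB and 0.0620 ± 0.0877 for SNCG (SD, n = 2). The place of SNCG rests on 1 UMI, and its interval over both flasks reached 0.4003 CPM. Each tag stands for a transcript, so the counts were not divided by transcript length, although the order also holds any difference in capture between genes. Neighbours in this order did not overlap between flasks, except that MAPT and PINK1 did, although the counting intervals of UCHL1 in SplitA (209 to 234) and PARK7 in SplitB (195 to 215) touched. UCHL1 ranked 452 and PARK7 523 among 17881 genes with a UMI, APP ranked 1120, MAPT 5795, PINK1 6009, APOE 8103, SNCB 12190 and SNCG 16924. Of these 17881 genes, 6955 (38.9%) had at least 10 CPM in both flasks, which is the background for the gene lists below.

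**Figure D1:**
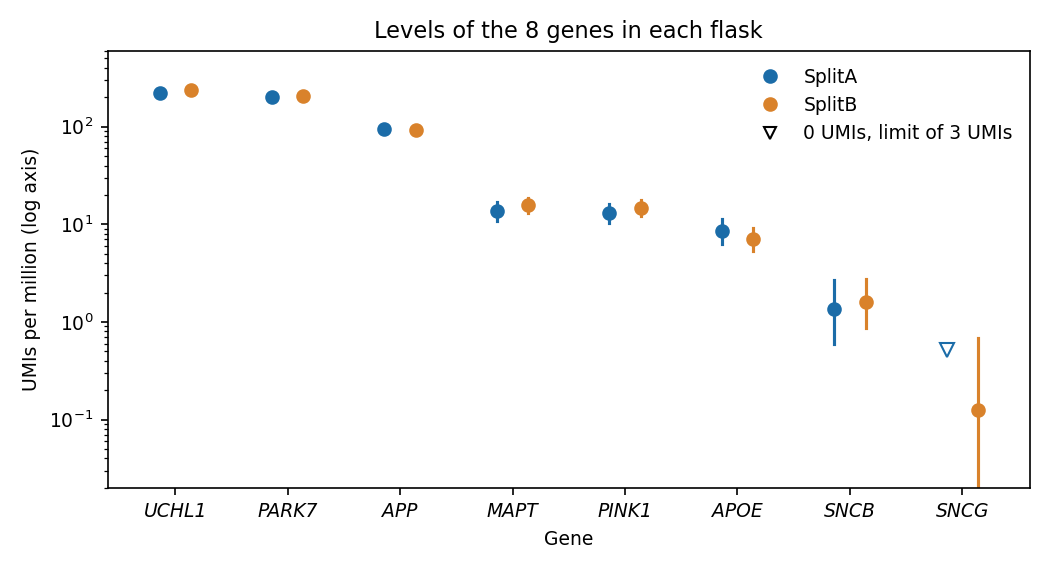
UMIs per 1000000 UMIs (log axis) of each gene in SplitA and SplitB, with exact Poisson 95% intervals for counting error; the open triangle marks 0 UMIs of SNCG in SplitA at the level of 3 UMIs, and the interval of SNCG in SplitB runs below the axis. UCHL1 and PARK7 stood near 200 CPM, APP near 90, and the synuclein genes below 2 CPM.

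Both synuclein genes were close to the limit of detection. SNCB (chr5:176620082-176630556, minus strand) had 8 UMIs in SplitA and 13 in SplitB, or 1.37 CPM (interval 0.590 to 2.69) and 1.61 CPM (0.858 to 2.76). No cell had more than 1 of them, so SNCB was seen in 0.890% and 1.09% of cells. SNCG (chr10:86958599-86963258, plus strand) had no UMI in the 899 cells of SplitA and 1 UMI in SplitB. In SplitA 3 UMIs would be 0.513 CPM or 0.334% of cells, and the exact intervals reach 0.630 CPM and 0.4095%, which limits the share of cells with a UMI and not that of cells expressing the gene. MMRN2, which overlaps SNCG on the opposite strand, also had 1 UMI in all, and the sources used here do not give the strand setting of the counting. Transcripts of presynaptic proteins and of binding partners of the synucleins were present. All 10 genes of a list of synuclein-binding and presynaptic genes had at least 10 CPM in both flasks, with YWHAE (296 CPM) and YWHAZ (238 CPM), which encode 14-3-3 proteins, highest.

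Of the Parkinson's disease genes, PARK7 was abundant and PINK1 was not. PARK7 (chr1:7954291-7985505, plus strand) had 1171 and 1655 UMIs, or 200.1 CPM (189 to 212) and 205 CPM (195 to 215), and a UMI in 67.4% and 68.7% of cells, with up to 9 and 11 per cell. PINK1 (chr1:20633458-20651511, plus strand) had 76 and 119 UMIs, or 12.99 CPM (10.2 to 16.3) and 14.8 CPM (12.2 to 17.7), in 7.79% and 9.37% of cells. The antisense gene PINK1-AS had 6 UMIs in both flasks together. LRRK2, which encodes another kinase of Parkinson's disease, had 1 UMI in each flask. Of 20 further Parkinson and mitophagy genes, 14 had at least 10 CPM in both flasks, led by CHCHD2 (1806 CPM), a protein of the mitochondrial intermembrane space, and TOMM7 (686 CPM), a subunit of the import pore of the outer membrane. The mitophagy receptor genes BNIP3 (131 CPM) and BNIP3L (70.5 CPM) were thus more abundant than PINK1 in both flasks.

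UCHL1 was the most abundant of the 8. The gene (chr4:41256413-41268455, plus strand) had 1295 UMIs in SplitA and 1928 in SplitB, or 221 CPM (209 to 234) and 239 CPM (228.5 to 249.9), and a UMI in 70.4% and 73.5% of cells. The highest cells held 11 and 17 of them. Its relatives UCHL3 (22.1 CPM) and UCHL5 (24.6 CPM) were far lower, and of 15 ubiquitin and deubiquitinase genes 14 had at least 10 CPM in both flasks. RPS27A (4222 CPM), which encodes ubiquitin fused to a ribosomal protein, was highest, and the polyubiquitin gene UBB had 744 CPM.

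APP (chr21:25880535-26171128, minus strand) had 557 and 739 UMIs, or 95.2 CPM (87.4 to 103) and 91.6 CPM (85.1 to 98.5), and a UMI in 43.5% and 42.3% of cells. Its paralogs were of the same order, APLP2 with 82.5 and 96.9 CPM and APLP1 with 52.5 and 53.2 CPM. In the list of 21 APP family and processing genes, 15 had at least 10 CPM in both flasks, and the highest were APH1A (152 CPM) and PSENEN (92.1 CPM), subunits of γ-secretase, which makes the last cut that frees amyloid-β. The β-secretase gene BACE1 had 22.9 and 17.9 CPM and its paralog BACE2 no UMI. The divergent transcript APP-DT, on the opposite strand, had 68 UMIs.

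MAPT (chr17:45894527-46028334, plus strand) had 80 and 127 UMIs, or 13.7 CPM (10.8 to 17.0) and 15.7 CPM (13.1 to 18.7), in 8.68% and 9.46% of cells. Other microtubule-associated proteins were more abundant, with MAP1B at 367 CPM and MAP2 at 56.1 CPM. Of a list of 20 such proteins and tau kinases, 18 had at least 10 CPM in both flasks. MAPT-AS1, on the opposite strand, had 16 UMIs and the nested gene STH 2.

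APOE (chr19:44905791-44909393, plus strand) had 50 and 57 UMIs, or 8.54 CPM (6.34 to 11.3) and 7.07 CPM (5.35 to 9.16), in 4.89% and 4.44% of cells. Of the cells with a UMI of APOE, 40 of 44 in SplitA and 51 of 53 in SplitB had 1. Its index of dispersion (the squared deviation of a cell's UMIs from those expected at its depth, divided by that expectation and averaged over cells, near 1 for counting noise alone) was 1.58 in SplitA and 1.40 in SplitB, above 99.5% and 98.5% of genes with 20 to 200 UMIs, and 1 cell with 4 UMIs was found in each flask. Without that cell the index was 1.36 and 1.27, where 90% of such genes were below 1.188 in SplitA and 1.187 in SplitB. A raised index was not particular to APOE. UCHL1 had 1.575 and 1.661, above 95.07% and 96.96% of genes with 200 to 3000 UMIs. APP had 1.375 and 1.404 (above 90.8% and 93.35%) and PARK7 1.317 and 1.318 (above 87.25% and 89.39%). PINK1 had 1.11 and 1.015, and MAPT 1.009 and 1.159. Of 15 genes of apoE receptors and lipid transport, 4 had at least 10 CPM in both flasks, against 38.9% of all genes with a UMI. These were NR1H2 (36.7 CPM), CLU (28.4 CPM), SORT1 (16.9 CPM) and APOC1 (15.8 CPM), named after their values were seen apart from the leading pair. The receptor gene VLDLR (1.99 CPM) was low and TREM2 had no UMI.

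**Figure D2:**
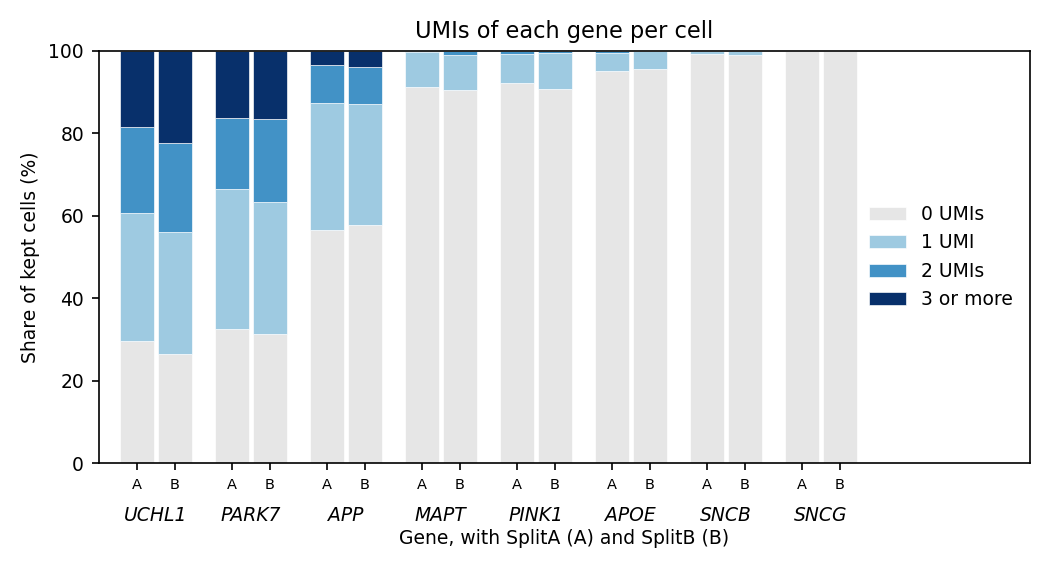
Share of kept cells (%) with 0, 1, 2 and 3 or more UMIs of each gene, in SplitA (A) and SplitB (B), genes in the order of their level. A UMI of UCHL1 was found in 70.4% and 73.5% of cells, whereas no gene from MAPT on reached 10% of cells.

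The share of cells with a UMI depended on depth. With each cell thinned at random to 2000 UMIs (898 and 1193 cells, 3 shallower cells left out), UCHL1 was seen in 36.6% (interval 33.5% to 39.9%) of SplitA and 38.7% (35.9% to 41.6%) of SplitB cells, PARK7 in 31.6% and 33.6%, and APP in 17.7% and 16.5%. The 5 other genes were then in at most 3.69% of cells. Without thinning, 5.67% of SplitA cells and 4.35% of SplitB cells had no UMI of any of the 8 genes, and most often (40.4% and 40.7%) a cell had a UMI of exactly 2 of them. All cells are of 1 line, so no cells that should lack these genes were at hand, and the part of free RNA in these shares was not measured.

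The stretches before the start of transcription are shown for the genes at both ends of the order. Each is the part nearest to the RefSeq start (GRCh38.p14) of the 250 bases before it that no exon of GENCODE 44 covers, written 5′ to 3′ on the strand of the gene, with CG dinucleotides in capitals.
UCHL1, chr4:41256804-41256907 (+ strand): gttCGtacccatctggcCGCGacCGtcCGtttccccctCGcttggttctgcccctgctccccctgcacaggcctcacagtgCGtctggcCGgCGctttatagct
PARK7, chr1:7961461-7961662 (+ strand): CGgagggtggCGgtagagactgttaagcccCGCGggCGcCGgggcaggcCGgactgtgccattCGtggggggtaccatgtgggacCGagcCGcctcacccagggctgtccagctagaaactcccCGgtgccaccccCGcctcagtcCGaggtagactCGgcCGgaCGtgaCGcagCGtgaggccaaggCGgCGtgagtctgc
SNCB, chr5:176630557-176630617 (- strand): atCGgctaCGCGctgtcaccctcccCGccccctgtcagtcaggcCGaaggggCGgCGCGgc
SNCG, chr10:86958349-86958598 (+ strand): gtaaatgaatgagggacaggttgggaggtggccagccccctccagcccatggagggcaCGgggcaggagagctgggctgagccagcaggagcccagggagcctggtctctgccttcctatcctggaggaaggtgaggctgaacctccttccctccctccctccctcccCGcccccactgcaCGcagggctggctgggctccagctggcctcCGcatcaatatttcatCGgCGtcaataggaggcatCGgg
In these stretches CG made up 8.65 per 100 bases for UCHL1, 9.90 for PARK7, 13.1 for SNCB and 2.80 for SNCG. In the whole 250 bases, UCHL1 had 20 CG, PARK7 28, SNCB 26 and SNCG 7, against a median of 11 over 35116 RefSeq promoters. The scarcely detected SNCB thus had about as many CG as the abundant PARK7. The stretch of SNCB is 61 bases long because exons of EIF4E1B, a gene without a UMI here, begin on its other side, and GENCODE 44 places further starts of UCHL1 and PARK7 upstream. SNCG has a further RefSeq start upstream, with 6 CG in its 250 bases, which is not shown. The letters TATAAA were in none of the 4 windows of 250 bases on the strand of the gene, and 6.80% of all promoters hold them. PINK1 and MAPT have no entry in the table of promoters used.

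None of the 6 members with at least 100 UMIs differed by 1.5-fold between the flasks. The ratios of SplitB to SplitA were 1.03 for PARK7, 1.08 for UCHL1, 1.14 for PINK1, 1.15 for MAPT, 0.963 for APP and 0.827 for APOE. SNCB, with 21 UMIs in all, had 1.18, and SNCG gave no ratio. Over all genes with so many UMIs, 73 of 8429 (0.866%) were past that limit, among them CDK5R1 and LRP1 of the lists above. With 1 flask against 1 flask there is no test, and a count of 0 of 6 is what that background share would give as well.

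The levels of the members in a cell were compared pair by pair within a flask. Of 28 pairs, 21 had a Pearson's r in both flasks (LogNorm values, 899 and 1195 cells, which share 1 library, so that r is a description), and none was past 0.1 on the same side in both, against 1.09% of 13470645 pairs of genes seen in at least 10% of cells, a share at which 0 of 21 is what the background would give as well. The median size of r was 0.02555 and 0.0249 over the 21 pairs and 0.0264 and 0.0238 over that background, and only 3 of the 21 pairs were of genes seen in 10% of cells. r lay between -0.060 and 0.096 in SplitA and between -0.039 and 0.053 in SplitB, and it had the same sign in both flasks for 10 of 21 pairs. UCHL1 with PARK7 had r of 0.089 and 0.025, UCHL1 with APP 0.081 and 0.026, and PARK7 with APP 0.0032 and -0.0033. The highest value in SplitA, 0.096 for SNCB with MAPT, came from 3 cells with both genes and was -0.032 in SplitB. In counts as sparse as those of MAPT, PINK1, APOE and the synuclein genes, a low r sets no limit on a relation.

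**Figure D3:**
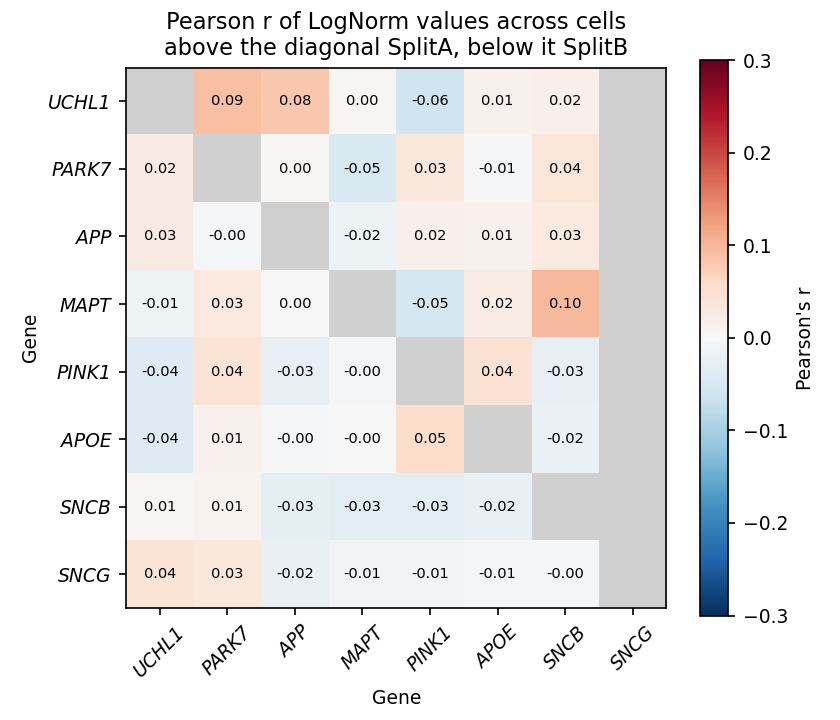
Pearson's r of LogNorm values across the kept cells for each pair of genes, SplitA above the diagonal and SplitB below it; grey marks the diagonal and pairs with SNCG in SplitA, where it had no UMI. No pair was past 0.1 in both flasks.

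Detection in the same cell was compared with the product of the shares. After thinning, UCHL1 and PARK7 were both seen in 12.6% of SplitA and 13.7% of SplitB cells, 1.09 and 1.05 times the product of their shares. For UCHL1 with APP these ratios were 1.05 and 1.10, and for PARK7 with APP 0.974 and 0.846. All 3 genes were seen together in 2.45% (1.54% to 3.69%) and 1.93% (1.23% to 2.88%) of cells, against 2.05% and 2.15% from the product, which lies inside both intervals.

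The genes with the highest r to each of the 3 abundant members were read off among 5190 genes seen in at least 10% of cells, so that each value is the highest of many. The genes closest to UCHL1 in SplitA were ACTB, HSP90AA1 and TUBA1A, with r of 0.267, 0.247 and 0.237, and in SplitB r was 0.219, 0.216 and 0.244. They encode cytoplasmic actin, a cytosolic chaperone and α-tubulin. Among these 5190 genes UCHL1 was above 0.1 in both flasks with 76 and below -0.1 with 97. It was past 0.1 in both flasks with 1.66% of 10555 genes with at least 20 UMIs in each flask and with 4 of the 15 ubiquitin genes, among them UBB (0.171 and 0.188) and, in the opposite direction, RPS27A (-0.171 and -0.178). For PARK7 the closest gene in both flasks was S100A11, a calcium-binding protein gene, with r of 0.199 and 0.231, whereas SPCS1 and HSPBP1, next in SplitA at 0.168 and 0.164, had 0.084 and -0.020 in SplitB. The genes closest to APP in SplitA were the mitochondrial transcripts MT-CO3, MT-ND4 and MT-CO2 (0.333, 0.333 and 0.328). In SplitB their r was 0.185, 0.179 and 0.174, and they ranked 2, 3 and 5. APP was past 0.1 in both flasks with 1.59% of the 10555 genes. Of its 19 relatives and processing genes, APLP2 (0.154 and 0.125) and ITM2B (0.129 and 0.1503) were past 0.1 in both flasks. APOE was past 0.1 only with CLU (0.125 and 0.118), which encodes another apolipoprotein, resting on 9 and 17 cells with both genes, among 8 apoE and lipid genes and with a background of 0.0568%. PARK7 was past 0.1 in both flasks with none of 15 Parkinson and mitophagy genes, against 0.313% of all genes, and so was PINK1, against 0.0%. MAPT was past it with none of 20 microtubule genes (background 0.0%) and SNCB with none of 10 presynaptic genes (background 0.0189%), so that for these 4 members none is what the background gives.

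The mitochondrial share of a cell moved with several of these values. Its r with APP was 0.350 in SplitA and 0.188 in SplitB, with UCHL1 0.191 and 0.139, and with PARK7 -0.020 and -0.114. The log10 UMIs of a cell had r of -0.173 and -0.088 with APP, -0.128 and -0.140 with UCHL1 and 0.025 and 0.046 with PARK7. The parts of depth and mitochondrial share in these relations were not tested apart. In the 664 and 884 kept cells under 10% mitochondrial share, APP had r of 0.104 and 0.079 with MT-CO3 and 0.078 and 0.076 with APLP2, and UCHL1 had 0.204 and 0.158 with ACTB and 0.120 and 0.1503 with UBB. UCHL1 with RPS27A (-0.115 and -0.081), APP with ITM2B (0.023 and 0.105) and APOE with CLU (0.037 and 0.137) were also no longer past 0.1 in both flasks. PARK7 with S100A11 was then 0.232 and 0.269, as high as in all kept cells. These relations of UCHL1 and APP were thus smaller, and that of PARK7 was not, where cells of higher mitochondrial share were left out.

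The levels were also compared between cells called G1, S and G2M from the S and G2M gene lists of Seurat, of which none of the 8 genes is a member. The called phases held 41.6% and 42.1%, 29.8% and 29.0%, and 28.6% and 28.9% of SplitA and SplitB cells. UMIs were summed per flask and phase and tested with the quasi-likelihood test of edgeR, the flask being a block because each gave all phases, and Benjamini-Hochberg adjustment over 10537 genes. The spread is between 2 flasks of 1 library and may be technical (common biological coefficient of variation 0.0195), so that p-values rest on little more than counting error. SNCB and SNCG had too few UMIs to be tested.

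PARK7, MAPT and APOE were lower in G2M than in G1 cells, 3 of the 6 genes tested, where 15.5% of all genes were lower (1634) and 15.3% higher (1614), 30.8% in all. Library size in place of the TMM factors of the fit moved the median of all genes up by 0.12 on the log2 scale and the calls to 1095 lower and 2265 higher, and PARK7, MAPT and APOE stayed lower and called (edgeR, adjusted p of 0.000184, 0.00275 and 0.00257). PARK7 had 216 CPM in G1, 189 in S and 189 in G2M cells of SplitA, and 231, 206 and 171 CPM in SplitB. The G2M cells were below the G1 cells in both flasks, with a log2 difference of -0.45 (SE 0.072, adjusted p = 3.29e-07, edgeR quasi-likelihood test). As ratios of CPM, which leave out the TMM factors, it was -0.19 in SplitA and -0.43 in SplitB, so that without SplitB the difference was smaller. With library size in place of these factors the fit gave -0.33. MAPT had 17.0, 15.8 and 7.52 CPM in G1, S and G2M cells of SplitA and 19.0, 16.4 and 10.8 CPM in SplitB. Its G2M cells were lower in both flasks (log2 difference -1.06, SE 0.26, adjusted p = 0.000653, edgeR), and S cells did not pass (-0.25, adjusted p = 0.524, edgeR). APOE had 14.1, 7.30 and 2.69 CPM in SplitA and 9.03, 5.77 and 5.62 CPM in SplitB, from 5 to 33 UMIs a group. Its log2 difference between G2M and G1 was -1.46 (SE 0.36, adjusted p = 0.000906, edgeR), with -2.39 in SplitA and -0.68 in SplitB as ratios of CPM. With DESeq2 in place of edgeR, the adjusted p was 0.0061 for PARK7, 0.132 for MAPT and 0.148 for APOE, so only the difference of PARK7 was called by both tools.

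In S against G1 cells, PARK7 alone was called, with a log2 difference of -0.26 (SE 0.072, adjusted p = 0.00548, edgeR), where 9.43% of genes were lower and 10.5% higher, 19.9% in all. It was not called with DESeq2 (adjusted p = 0.289) or with library size in place of TMM factors (edgeR, adjusted p = 0.0754), which moved the median of all genes up by 0.080. UCHL1 and APP did not pass in either phase. With cells of at least 300 genes in place of 1000, however, both were higher in S than in G1, APP by 0.46 (adjusted p = 4.37e-05, edgeR) and UCHL1 by 0.21 (adjusted p = 0.0128, edgeR), and UCHL1 was called lower in G2M under 5 of 13 alternatives. UCHL1 had 219, 244 and 204 CPM in G1, S and G2M cells of SplitA and 232, 255 and 234 CPM in SplitB (G2M against G1 -0.16, adjusted p = 0.0616, edgeR). APP had 83.5, 111 and 96.2 CPM in SplitA and 85.8, 94.9 and 96.4 CPM in SplitB (G2M against G1 0.061, adjusted p = 0.699, edgeR). PINK1 had 15.8, 9.13 and 12.9 CPM in SplitA and 17.2, 14.6 and 11.7 CPM in SplitB (-0.56, adjusted p = 0.0791, edgeR). In both flasks S and G2M cells were therefore lower than G1 cells for PINK1 and higher for APP, without passing the test.

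**Figure D4:**
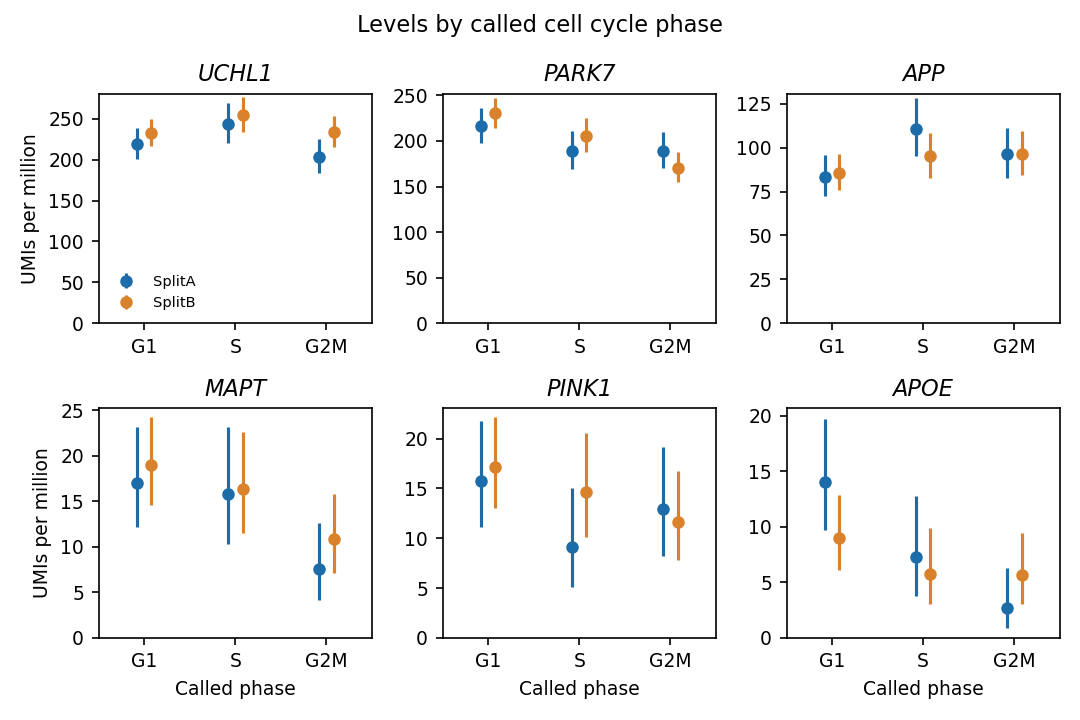
UMIs per 1000000 UMIs of 6 genes in cells called G1, S and G2M, with exact Poisson 95% intervals for counting error, SplitA and SplitB apart and each axis from 0. MAPT had 17.0 and 19.0 CPM in G1 and 7.52 and 10.8 CPM in G2M.

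Of 87 tested genes in the 6 lists around the members, 22 were lower and 9 higher in G2M than in G1 cells, or 35.6% against the 30.8% of all genes. In G2M against G1, 6 of 15 tested Parkinson and mitophagy genes were lower and none higher, among them TOMM7 (log2 difference -0.16, adjusted p = 0.00312, edgeR, close to the shift of 0.12 between scalings) and TOMM20, BNIP3 and BNIP3L. Of 15 ubiquitin genes 6 were lower and 3 higher, with RPS27A at -0.36 (adjusted p = 1.77e-18, edgeR). Of 19 APP family and processing genes 2 were lower, PSENEN at -0.61 (adjusted p = 6.84e-07, edgeR) and ITM2C at -0.74 (adjusted p = 1.2e-08, edgeR), which was named after its value was seen. Of 20 microtubule genes 3 were lower and 4 higher, of 8 apoE and lipid genes 2 were lower and 2 higher, with CLU at -1.09 (adjusted p = 1.22e-06, edgeR) and NR1H2 at -0.61 (adjusted p = 0.00204, edgeR), and of 10 presynaptic genes 3 were lower, VAMP2, RAB3A and YWHAZ. The median log2 difference was -0.50 over the 6 members, -0.23 over the presynaptic genes and -0.45 over 10 adrenergic markers (7 lower, 1 higher), against 0.030 over all genes. G2M cells also held more UMIs than G1 cells, with medians of 7037 and 5819.5 in SplitA and 6997 and 6103 in SplitB, and at an equal depth of 2000 UMIs a cell the log2 difference was -0.55 for PARK7 (adjusted p = 0.000247, edgeR) and -0.89 for MAPT (adjusted p = 0.272, edgeR). PARK7 was the only one called of the 5 members then tested, a share close to that of all genes (1305 of 6774 called). PINK1 stood at -0.61, UCHL1 at -0.14 and APP at 0.14, and APOE had too few UMIs. The part of the neuroblast genes in the lower levels was not tested.

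The limit of 1000 genes left out 280 SplitA and 410 SplitB cells, with a median mitochondrial share of 32.6% and 36.7% against 8.64% and 8.82% in the kept cells. APP and UCHL1 took a larger part of the nuclear-encoded UMIs of these cells. APP had 538 (456 to 631) and 572 (498 to 655) UMIs per 1000000 nuclear-encoded UMIs in them against 105 (96.3 to 114) and 101 (94.0 to 109) in kept cells, 5.13 and 5.66 times as many. UCHL1 had 687 (593.5 to 790.5) and 697 (614 to 787) against 244 (231 to 257) and 264 (252 to 276), 2.82 and 2.64 times as many, while PARK7 had 258 and 254 against 220.4 and 226.5, 1.17 and 1.12 times. Over the 2324 nuclear genes of at least 50 CPM, 30.9% were at least 1.5-fold higher in both flasks and 20.8% at least 1.5-fold lower. The median ratio was 1.09 and 1.10, and 45 genes, APP among them, had ratios of at least 5.13 in both flasks. Of APP, UCHL1 and PARK7, 2 were thus at least 1.5-fold higher in both flasks, and no test was made.

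APOE lay under the 50 CPM of that background, with 18 and 21 UMIs in the cells left out. It had 63.7 (37.8 to 101) and 56.7 (35.1 to 86.7) CPM of nuclear-encoded UMIs there against 9.41 (6.99 to 12.4) and 7.80 (5.91 to 10.1) in kept cells, 6.77 and 7.27 times as many. PINK1 had 28.3 (12.2 to 55.8) and 40.5 (22.7 to 66.8) CPM against 14.3 and 16.3, on 8 and 15 UMIs. In SplitA its interval thus held the level of kept cells. MAPT had 14.2 and 18.9 against 15.1 and 17.4, on 4 and 7 UMIs. Neither synuclein gene had a UMI in these cells.

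Counted per cell, the transcripts of APP and APOE were nearly as many in the cells left out as in the kept cells, while nuclear-encoded UMIs as a whole were far fewer. APP had 0.543 UMIs per cell in SplitA cells left out and 0.620 in kept cells, and 0.517 and 0.618 in SplitB, ratios of 0.876 and 0.836. For APOE the ratios were 1.16 and 1.07, on 18 and 21 UMIs in the cells left out, 7 of the 18 in 1 cell. The ratios were 0.481 and 0.390 for UCHL1, 0.338 and 0.367 for PINK1, 0.200 and 0.166 for PARK7 and, on 4 and 7 UMIs, 0.161 and 0.161 for MAPT. All nuclear-encoded UMIs together had 0.171 and 0.148, so PARK7 and MAPT stayed close to the whole, and APP, APOE and UCHL1 were above it. The ratios of PINK1 were above it as well, but in SplitA they rest on 8 UMIs, within counting error of the whole.

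**Figure D5:**
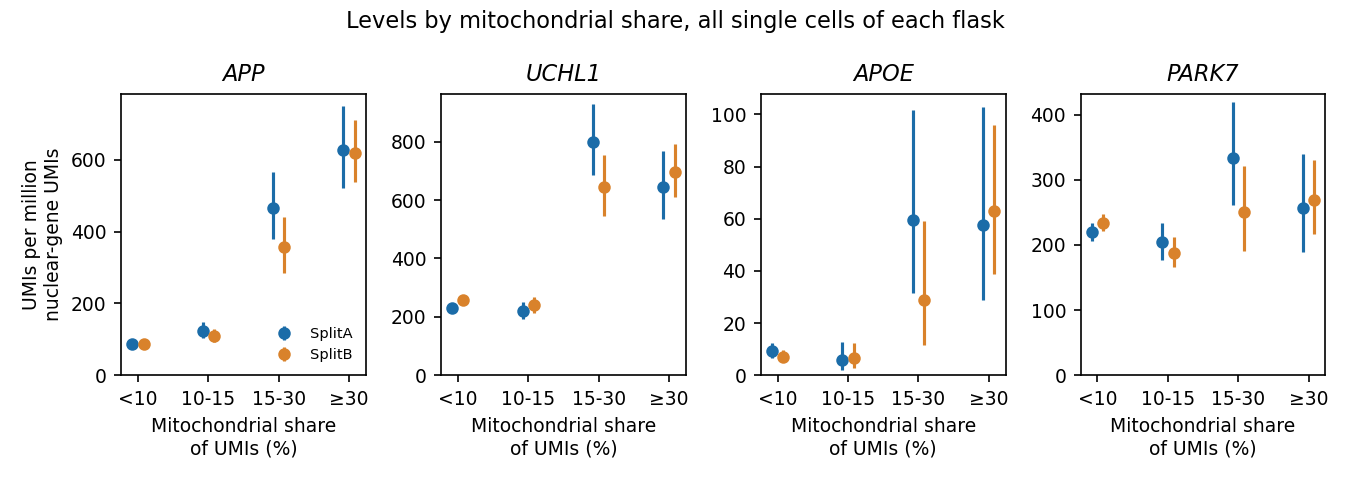
Levels as UMIs per 1000000 nuclear-encoded UMIs in all SplitA and SplitB cells by mitochondrial share of their UMIs (under 10%, 10 to 15%, 15 to 30%, 30% or more), with exact Poisson 95% intervals for counting error and each axis from 0. APP had 86.5 and 88.4 CPM in the lowest and 628 and 619 in the highest class. PARK7 stood at 219.5 and 234 in the lowest class, 334 and 250 at 15 to 30% and 256 and 269 in the highest.

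Across classes of mitochondrial share, APP went from 86.5 and 88.4 CPM of nuclear-encoded UMIs under 10%, through 124 and 109.5 at 10 to 15% and 466 and 357 at 15 to 30%, to 628 and 619 at 30% or more. UCHL1 had 232 and 256 CPM in the lowest class, 220.3 and 240.0 in the next, 800.2 and 644 at 15 to 30% and 643 and 697 in the highest, so its step lay at 15%. PARK7 had 219.5 and 234 CPM in the lowest class and 204 and 188 in the next. It had 334 and 250 at 15 to 30% and 256 and 269 in the highest. Among kept cells alone APP and UCHL1 were also higher. The 70 and 104 kept cells of 15% or more had 451 and 343 CPM of APP against 94.1 and 92.5 in the other kept cells (4.79 and 3.72 times), where 30.6% of genes were at least 1.5-fold higher in both flasks. UCHL1 was 3.27 and 2.55 times as high in them, and PARK7 1.71 and 1.21 times. Of 37 genes with at least 50 CPM in the lists around the members, 17 were at least 1.5-fold higher and 6 at least 1.5-fold lower in cells left out, against 30.9% and 20.8% of all genes. The higher ones included 5 of 10 ubiquitin genes, 4 of 7 microtubule genes and 4 of 6 genes around APP, APLP1, APLP2, ITM2B and ITM2C, named after their values were seen. Another 2 of the ubiquitin genes were lower. Of 8 Parkinson and mitophagy genes 2 were higher and 3 lower, and of 6 presynaptic genes 2 were higher and 1 lower. These cells differ from the kept cells in depth, mitochondrial share and possibly free RNA at once, which cannot be told apart here.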

How the data were processed

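Untreated SH-SY5Y cells of 2 flasks were measured by CITE-seq with 10x 3′ chemistry in 1 mRNA and 1 hashtag library. The authors aligned reads to GRCh38 (STAR 2.7 and Cell Ranger 4.0.0 in the submitters' processing notes) and deposited UMI counts without normalization, whole numbers per Ensembl gene and hashtag. The annotation version and strand setting are not given in the sources used here. The members and gene lists were chosen with earlier results of these data known. Both hashtags carry the same split name in the labels, so the flask was taken from the study's code: the flask's own hashtag at least 3 times the other and the other at most 185 counts. Of the gene identifiers, 33113 had a symbol.

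Levels are summed UMIs per 1000000 UMIs (CPM) with exact Poisson 95% intervals, shares have exact binomial (Clopper-Pearson) 95% intervals, and both cover counting error only. LogNorm is ln(1 + UMIs per 10000). Kept cells had 1801 to 27205 UMIs. The named genes are all members, the 2 most abundant genes of each list (some genes are not reported here), the 3 genes of highest r in SplitA for members of at least 0.5 UMIs per cell, and the leading and absent markers, and other genes of the lists were named after their values were seen. Multiplets were left out, doublets within a flask cannot be seen by hashtag, and Scrublet (scanpy 1.11.5) called 7 of 2879 cells (0.243%), too few to count as a working filter. Phases came from Seurat 5.3.0 (43 of 43 S and 53 of 54 G2M genes found), tests from edgeR 4.0.16 with DESeq2 1.42.0 as an alternative, in R 4.3.3 and Python 3.11.15. On simulated data for G2M against G1 (10410 genes), the edgeR step recovered 24.0% of 1.5-fold, 63.3% of 2-fold and 95.9% of 4-fold changes and called 0.0685% of unchanged genes. The simulated counts had no difference between flasks, few changed genes and a spread set above the common coefficient of variation of the data (0.0195). These shares therefore do not carry over to the test of the data. Gene positions are those of GENCODE 44.

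The flask block pairs the phases of the same flask. Alternatives concerned the cell filters, the hashtag limit, doublets, CPM without the 13 mitochondrial genes, thinning, count minimums, the correlation measure, normalization, the test, the phase lists and leaving out each flask.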

Additional observations from a re-analysis of the deposited data

How the results depend on the processing

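Over the alternatives run for each, 5 members kept at least 10 CPM in each flask, none of the 3 to 7 members with enough UMIs passed 1.5-fold between flasks and no pair passed r of 0.1 in both flasks, and 3 members kept a UMI in at least 10% of cells under thinning, the only alternative run for that share. The number of genes called between G2M and G1 was 3248 of 10537 tested. It was 3139 of 10432 with cells of at least 300 genes and 3212 of 10459 with the further limits of a mitochondrial share under 15%. It fell to 1012 of 10537 with DESeq2 and to 1305 of 6774 with cells thinned to 2000 UMIs. Between S and G1 it fell from 2102 to 639 and 924. Thinning left fewer genes to test, so its counts are not of the same set of genes. With library size alone 67.4% of the genes called in G2M were higher, against 49.7% with TMM factors. Members called between G2M and G1 numbered 3 of 6 tested. They numbered 5 of 6 with cells of at least 300 genes and with the further limits, 1 of 6 with DESeq2 and 1 of 5 with thinning. Between S and G1 they numbered 1, and 3 with cells of at least 300 genes (PARK7 lower, APP and UCHL1 higher). They numbered 2 with the further limits, with a hashtag limit of 100 and with the updated phase list. They numbered 0 with DESeq2 and with library size alone (at an unadjusted p under 0.05, 1 and 4). For cells of at least 300 genes, the further limits, the hashtag limit, the updated list and library size, the S count over all genes is not given here. PARK7 was lower and called in G2M under all 13 alternatives, MAPT under 11 of 13 and APOE under 11 of 12, with adjusted p up to 0.0061, 0.272 and 0.148. The log2 difference of MAPT between S and G1 turned from -0.25 to 0.34 with thinning and passed in neither. Without the replicate block, that is without the flask in the edgeR fit, 3222 and 2083 genes were called in G2M and S, with 3 and 1 members, so the pairing of phases by flask changed no call of a member. The comparisons between classes of mitochondrial share, the values within cells under 10% share, the hashtag limit of 100 for cells left out and the index of APOE without its highest cell were chosen after seeing the data.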
